A study of Mus musculus with 4 samples.

Results

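Killer lectin-like receptors were followed in sorted alveolar macrophages, the resident phagocytes of the lung airspaces, of wild-type (WT) and Bach2KO mice. The 9 genes are Klra2, Klra3, Klra4, Klra7, Klra8, Klra17, Klrb1b, Klrd1 and Klrk1, of 19747 genes that had a probe and a RefSeq name. They were chosen by name as receptors of this family, after the WT and Bach2KO signals had been seen, and their probes are all those whose transcript accession belongs to 1 of the 9 genes. The difference between genotypes is therefore given as a description, with no test. By this rule 8 of the 9 genes had a probe, 15 probes in all, and Klra3 had none. Klra2 and Klrb1b had lower signals in Bach2KO, by 5.71-fold and by 3.94-fold to 4.70-fold. Klra8, by 2 of its 3 probes, and Klra17 were well above background in Bach2KO alone. Klra4, Klra7, Klrd1 and Klrk1 were measured in neither genotype.

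Each genotype was represented by a single RNA sample. The WT sample came from 8 mice, and the Bach2KO sample from 4 mice according to the treatment protocol or 3 according to the series design text. Bach2KO mice lack Bach2, a transcription repressor that binds Maf recognition elements and overlaps in its binding sites with AP-1. Strain, age, sex, any treatment, the kind of Bach2 allele and the sorting gate are not given in the sources used here. Each RNA sample was divided in 2 before amplification and labelling with Cy3, so that 2 WT and 2 Bach2KO arrays were hybridised. Both arrays of a genotype are thus repeats of labelling and hybridisation, their spread does not include that between mice, and no p-value can be given.

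Killer lectin-like receptors are C-type lectin-like membrane proteins, best known from natural killer (NK) cells, where the balance of inhibitory and activating forms sets the response to a target cell. The Klra genes encode the Ly49 receptors, many of which bind MHC class I, and the Klrb1 genes encode the NKR-P1 receptors, which bind Clec2 proteins encoded beside them. Klrd1 encodes CD94, the partner of the Klrc proteins, and Klrk1 encodes NKG2D, a receptor for stress-induced ligands. Inhibitory members carry an intracellular tyrosine motif that recruits phosphatases such as Ptpn6, and activating members signal through adaptors such as Tyrobp and Hcst. Klra2 (Ly49B) and Klra17 (Ly49Q) differ from most Ly49 receptors in being known from myeloid cells rather than NK cells, Klra17 also from plasmacytoid dendritic cells. The Klra genes lie as tandem copies whose number and sequence vary between inbred mouse strains, and a probe for 1 copy may bind others.

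The promoter windows of the 3 Klra genes with a measured difference are shown because the genes are close copies of each other that stood on opposite sides of the comparison. Each window runs from 250 bases before to 50 bases after the RefSeq transcription start (GRCm38.p6), is written 5′ to 3′ on the gene's own strand, and has TGANTCA in capitals where it occurs, the core shared by Bach and AP-1 sites, searched on both strands. The Klra2 window is chr6:131247313-131247612 on the minus strand, the Klra17 window chr6:129876623-129876922 on the minus strand and the Klra8 window chr6:130129849-130130148 on the minus strand. Another RefSeq start of Klra8, with the overlapping window chr6:130129786-130130085 on the minus strand, is not printed and also lacks TGANTCA.
Klra2: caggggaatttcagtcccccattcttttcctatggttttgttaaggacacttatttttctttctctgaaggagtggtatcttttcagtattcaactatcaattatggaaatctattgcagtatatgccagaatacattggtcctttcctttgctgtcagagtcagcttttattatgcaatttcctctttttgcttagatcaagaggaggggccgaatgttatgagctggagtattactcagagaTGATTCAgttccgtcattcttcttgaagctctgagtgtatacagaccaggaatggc
Klra17: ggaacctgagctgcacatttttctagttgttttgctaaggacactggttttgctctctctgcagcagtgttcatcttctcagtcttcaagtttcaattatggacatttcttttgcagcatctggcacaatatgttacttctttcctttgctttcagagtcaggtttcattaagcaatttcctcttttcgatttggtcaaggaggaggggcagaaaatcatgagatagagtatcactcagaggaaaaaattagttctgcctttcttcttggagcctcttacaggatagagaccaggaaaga
Klra8: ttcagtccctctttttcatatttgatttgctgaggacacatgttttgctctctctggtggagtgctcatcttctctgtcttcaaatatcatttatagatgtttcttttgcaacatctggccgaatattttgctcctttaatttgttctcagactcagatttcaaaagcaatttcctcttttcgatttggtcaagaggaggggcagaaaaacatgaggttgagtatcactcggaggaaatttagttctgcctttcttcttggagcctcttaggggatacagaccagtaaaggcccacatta
The Klra2 and Klra17 windows were identical at 78.2% of 293 aligned bases, the Klra2 and Klra8 windows at 77.0% of 287, and the Klra17 and Klra8 windows at 83.5% of 291. The core began 6 bases before the Klra2 start, at position -6, and had no match in the Klra17 and Klra8 windows.

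Around that match stretches of 27 bases are shown to let the difference be read, with the 7 bases aligned to the core in capitals. The bases on either side are the neighbours in each window and were not placed by the alignment. In Klra17 the bases before the capitals are shifted against those of Klra2, a difference in length not counted below.
Klra2: tactcagagaTGATTCAgttccgtcat
Klra17: ctcagaggaaAAAATTAgttctgcctt
Klra8: cactcggaggAAATTTAgttctgcctt
Counted from 1 at the first base of the Klra2 match, the capitals of Klra17 differed by T1A, G2A, T4A and C6T, and those of Klra8 by T1A, G2A and C6T. Those 3 substitutions also separated Klra2 from aligned windows of Klra4, Klra5, Klra6, Klra7 and Klra9. Of the 9 genes 8 had a window in the table, 11 windows in all, and 2 of these held TGANTCA: the Klra2 window and that of Klrk1, where it began at position 18, the start base being position 1. For comparison, 5 of 29 windows of all Klr genes and 7.81% of 32851 windows of all genes held it. A match in a window is a description of its letters, and binding was not measured here.

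The arrays were similar in depth. On each array between 68.8% and 70.8% of probes passed the background limit of the scanner software, which gave 27795 measured probes, a measured probe being one detected well above background in both repeats of either genotype. The 75th percentile of the processed signal, a background-subtracted spot brightness in arbitrary linear units, came to 1189.8 and 1417 with WT RNA and 947 and 896 with Bach2KO RNA. Differences are Bach2KO minus WT on the log2 scale, after each array was set relative to its own 75th percentile. Between arrays of the same RNA the SD of the log2 difference was 0.22 for WT and 0.20 for Bach2KO, and 0.31 and 0.28 among dim probes, those with a mean signal under 200. The only Bach2 probe gave signals of 15.8 and 19.5 with WT RNA and of 29.1 and 3.49 with Bach2KO RNA, and passed the background limit in WT array 2 and Bach2KO array 1 alone. The sources used here do not say which part of Bach2 was deleted, and it gave no check of the labels.

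A probe was called higher or lower where the difference was at least 2-fold in all 4 pairings of Bach2KO with WT arrays. Where a genotype was not well above background, the fold is a lower bound, set against the probe's own signal or, where higher, the lowest signal that passed the background limit on that array, and the bound also had to reach 2-fold. By this rule 4 of the 8 measured receptor probes were higher in Bach2KO and 4 were lower. Of all measured probes 7.21% were higher and 5.95% were lower. The receptor genes were picked with these differences known, and nothing is read from that contrast. In these pooled cells, fewer cells of a type and less RNA per cell cannot be told apart.

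Klra2 was the Ly49 gene of the 9 that was measured in both genotypes, and it was lower in Bach2KO. Its probe A_55_P2004562 (NM_001170851) had processed signals of 11781 and 14062 with WT RNA and of 1674 and 1529 with Bach2KO RNA. Both Bach2KO arrays lay below both WT arrays, and all 4 were well above background. Relative to the 75th percentile the log2 level was 3.31 ± 0.0026 in WT and 0.80 ± 0.04 in Bach2KO (SD over 2 arrays of 1 RNA sample, as below), a difference of -2.51, or 5.71-fold lower. Klra2 encodes an inhibitory receptor, and its signal with Bach2KO RNA was still above the 75th percentile of the arrays.

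Klrb1b, which encodes the inhibitory receptor NKR-P1B, was lower in Bach2KO by all 3 of its probes, which share the transcript NM_030599. Probe A_55_P1964325 had signals of 436 and 509 with WT RNA and of 80.7 and 80.8 with Bach2KO RNA. This probe went from a log2 level of -1.46 ± 0.02 to -3.51 ± 0.06, a difference of -2.05 (4.14-fold lower). Probe A_51_P109570 had signals of 192 and 226 in WT against 32.4 and 30.4 in Bach2KO, 4.70-fold lower. Probe A_55_P2106681 had signals of 132 and 162 against 26.4 and 26.3, 3.94-fold lower. The folds of the 3 probes lay between 3.94 and 4.70, and both Bach2KO arrays were below both WT arrays for each. The lowest signals that passed the background limit on the Bach2KO arrays were 14.3 and 15.5. With normexp background correction (4.68% of all probes higher and 3.45% lower), which adds an offset of 50 to every signal and so shrinks differences of dim probes, the differences of the 3 probes became -1.44, -1.13 and -0.76 in the same order, and the last probe was no longer called.

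Klra8 stood at the other end. It encodes Ly49H, an activating receptor that signals through Tyrobp and is present in some inbred strains and missing from others. Probe A_55_P2004526 (NM_010650) had signals of 13.1 and 13.7 with WT RNA, neither well above background, and of 2390.4 and 2048 with Bach2KO RNA. Probe A_55_P2004527, for the same transcript, had signals of 13.6 and 11.4 with WT RNA, again not well above background, and of 2445 and 2159 with Bach2KO RNA. The groups of arrays were far apart for both probes, with Bach2KO signals above the 75th percentile of their arrays, at log2 levels of 1.26 ± 0.10 and 1.32 ± 0.07. The difference was at least 184-fold by the first probe and at least 191-fold by the second on the processed signals. These bounds do not hold with normexp correction, whose offset raises the low WT values: the differences were then 5.08 and 5.38 on the log2 scale (33.9-fold and 41.6-fold), and both calls were kept. The third Klra8 probe, A_66_P121933, was not well above background on any array, with signals of 4.79 and 4.32 in WT and of 3.91 and 4.14 in Bach2KO. The probes of Klra8 thus disagreed, and the probe sequences are not used here.

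Klra17 was also measured in Bach2KO alone. It encodes Ly49Q, an inhibitory receptor that binds MHC class I. Probe A_52_P25026 (NM_133203) had signals of 3.84 and 5.52 with WT RNA, not well above background, and of 119 and 118 with Bach2KO RNA. Probe A_55_P2157859 had signals of 4.51 and 12.9 with WT RNA, not well above background, and of 91.5 and 91.0 with Bach2KO RNA. The difference was at least 9.82-fold by the first probe and at least 7.57-fold by the second. With normexp correction the differences were 1.81 and 1.37 on the log2 scale (3.51-fold and 2.58-fold), below these bounds, and both were still called higher. Both probes put Klra17 far below the 75th percentile in Bach2KO cells, at log2 levels of -2.96 ± 0.05 and -3.34 ± 0.05.

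**Figure D1:**
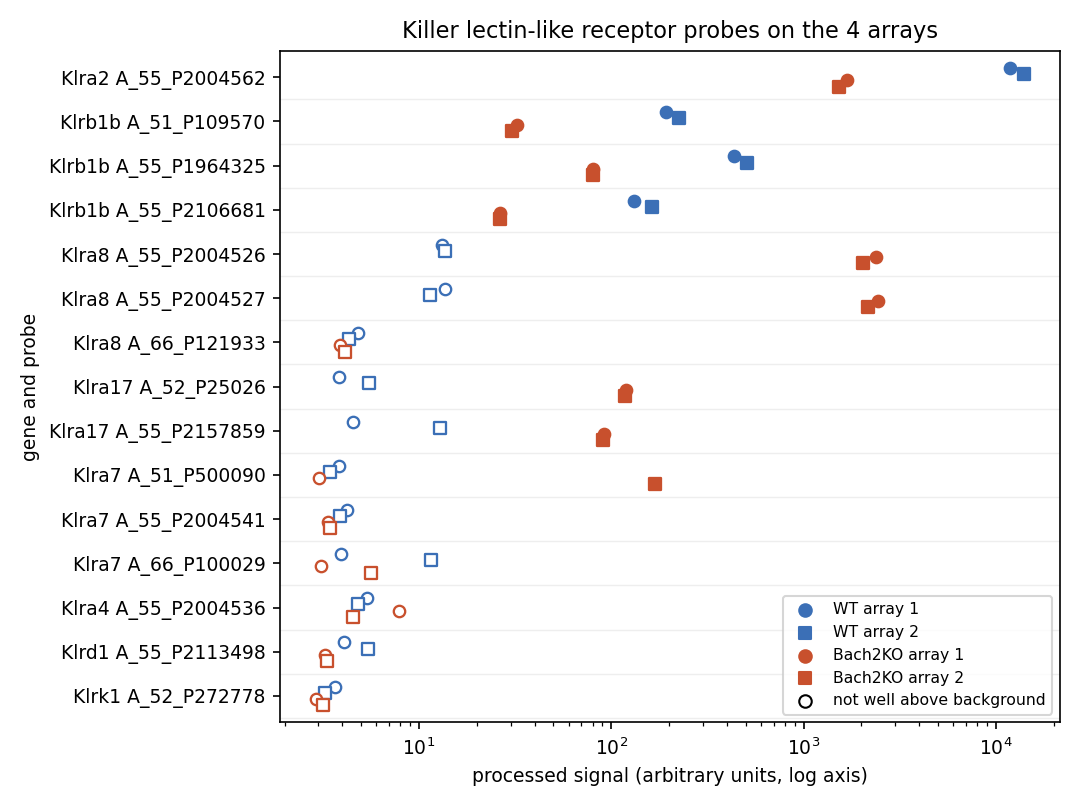
Processed signal (log axis, arbitrary units) of each of the 15 probes of the receptor genes on the 2 WT and 2 Bach2KO arrays, 1 point per array, with open symbols where the probe was not well above background. Klra2 and the 3 Klrb1b probes lie lower on both Bach2KO arrays, 2 Klra8 probes and both Klra17 probes are filled on the Bach2KO arrays alone, and the other 7 probes stay near the floor apart from 1 Klra7 point at 169.

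The other 7 probes were not measured in either genotype. Klra7 encodes the inhibitory receptor Ly49G, and its probe A_51_P500090 (NM_014194) had signals of 3.82 and 3.45 with WT RNA and of 3.03 and 169 with Bach2KO RNA. The arrays of the same Bach2KO RNA thus disagreed, and the probe was well above background on Bach2KO array 2 alone. Such single-array signals occurred elsewhere: 1438 probes were well above background on exactly 1 of the 4 arrays, 46 of them with a signal of at least 100 there. The other Klra7 probes, A_55_P2004541 and A_66_P100029 (both NM_001110323), were not well above background on any array, with signals of up to 4.24 and up to 11.6.

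The remaining unmeasured genes include activating receptors and partners. Klra4 encodes the activating receptor Ly49D, and its probe A_55_P2004536 (NM_010649) had signals of 5.37 and 4.79 in WT and of 7.86 and 4.55 in Bach2KO. Klrd1 had signals of 4.10 and 5.42 in WT and of 3.23 and 3.33 in Bach2KO with probe A_55_P2113498 (NM_010654). Klrk1 had signals of 3.66 and 3.23 in WT and of 2.90 and 3.17 in Bach2KO with probe A_52_P272778 (NM_033078). None of these probes was well above background on any of the 4 arrays, so their values have no order and say only that no signal was measured with these probes.

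**Figure D2:**
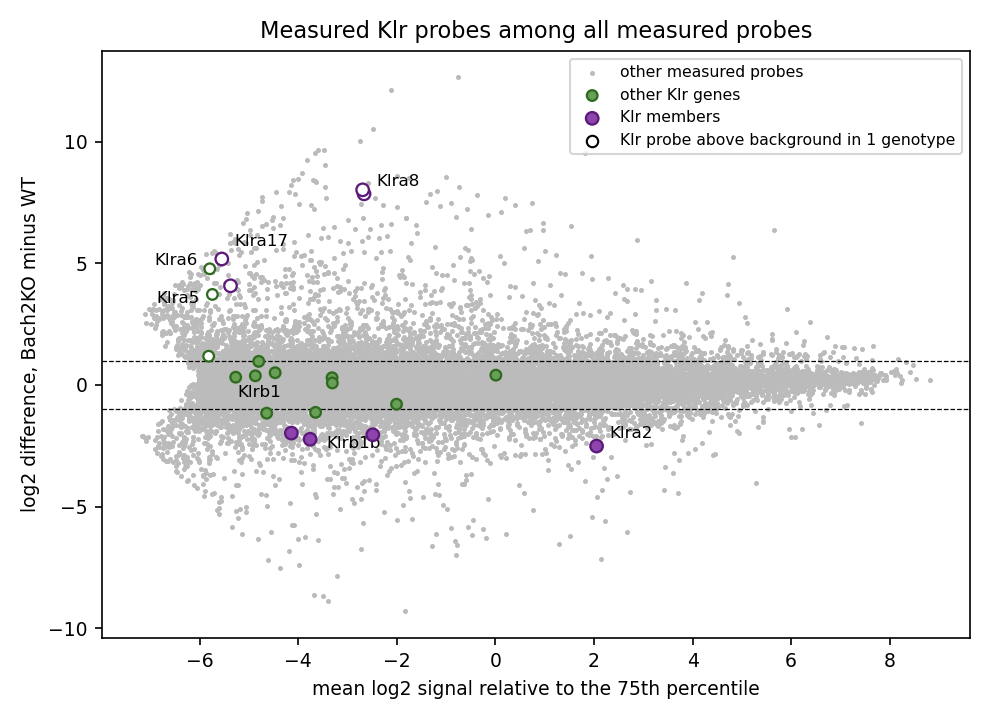
Difference between genotypes (Bach2KO minus WT, log2) against mean log2 level relative to the 75th percentile for all measured probes, with the receptor probes marked. The 8 measured receptor probes lie outside the 2-fold lines, 4 on each side, and those for Klra8 and Klra17 are drawn with open symbols because WT was not well above background.

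The scale of the comparison moved all values together. When the arrays were scaled to 9 spike-in probes for added E1A RNA in place of the 75th percentile, every difference shifted by -0.76, and the share of called probes that were higher went from 54.8% to 12.7%, with 3.11% of measured probes higher and 21.3% lower. The directions of the 8 receptor probes were the same on that scale. Klra2 was then at -3.27 and the Klrb1b probes between -2.74 and -2.99. Klra8 was at least 109-fold and at least 113-fold higher, and Klra17 at least 5.80-fold and at least 4.48-fold higher.

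**Figure D3:**
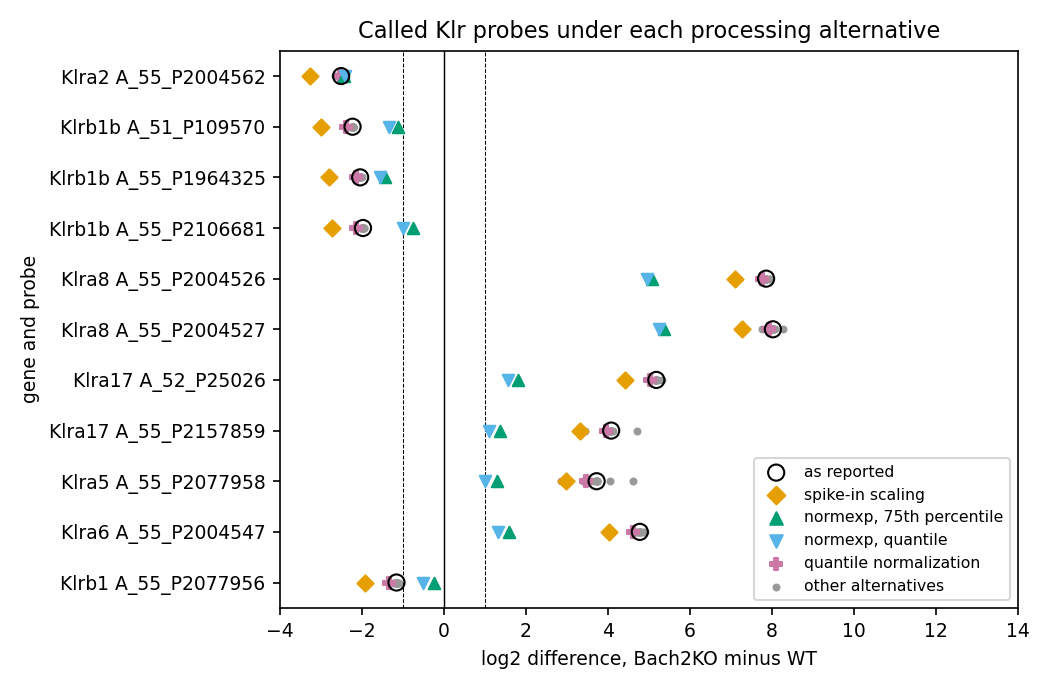
Difference between genotypes (Bach2KO minus WT, log2) of each measured receptor probe under the main scaling and the alternative scalings and background corrections, 1 point per setting. The 4 probes of Klra2 and Klrb1b stay below 0 and the 4 probes of Klra8 and Klra17 stay above 0, and normexp correction brings the values of Klrb1b, Klra8 and Klra17 closer to 0.

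The rest of the Klr family gave a mixed picture. Besides the 9 genes, 24 Klr genes are named in the gene table, of which 18 had a probe and 12 were measured. Taking the probe with the highest mean signal for each, 1 was higher, 1 was lower and 10 were neither, against 8.75% higher and 5.58% lower among the 15119 measured genes (4.15% and 21.3% on the spike-in scale, where 1 of the 12 was higher and 3 were lower). Klra6, a close Klra relative, was the higher one, with signals of 3.78 and 5.28 with WT RNA, not well above background, and of 94.4 and 80.0 with Bach2KO RNA. This gave a difference of at least 7.21-fold, or at least 4.26-fold on the spike-in scale, and of 1.58 on the log2 scale (2.99-fold) with normexp correction. Klrb1, a relative of Klrb1b, was the lower one, with signals of 67.8 and 89.3 in WT and of 24.6 and 24.8 in Bach2KO. Its difference of -1.16 (2.24-fold lower) shrank to -0.24 with normexp correction and was then not called.

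Probes of Klra5 disagreed with each other. Probe A_51_P104939 had signals of 46.7 and 52.0 in WT and of 47.7 and 51.5 in Bach2KO, a difference of 0.50. Probe A_55_P2077958 had 11.3 and 3.96 with WT RNA, not well above background, and 80.9 and 48.3 with Bach2KO RNA, at least 5.19-fold higher, a call lost with normexp correction. Klra9 had signals of 1034 and 1248 in WT and of 1099.6 and 1034 in Bach2KO, a difference of 0.40 that became -0.35 on the spike-in scale.

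Klra1 and Klrb1a had lower signals in Bach2KO without passing the rule. The Klra1 signals were 467 and 387 in WT and 188 and 162 in Bach2KO, a difference of -0.79 that became -1.55 and passed the rule on the spike-in scale. The Klrb1a signals were 146 and 160 in WT and 57.0 and 43.3 in Bach2KO, a difference of -1.13, and 1 of the 4 array pairs fell short of 2-fold at -0.91. Klrb1a was called lower on the spike-in scale (-1.88), with median centring, with quantile normalization and without WT array 2 or without Bach2KO array 1. Klrb1c encodes NK1.1, the usual surface marker of NK cells in some strains, and its measured probe had signals of 29.8 and 37.2 in WT and of 40.2 and 53.3 in Bach2KO, a difference of 0.97. Klrg1 had signals of 18.3 and 12.7 in WT and of 26.6 and 22.7 in Bach2KO and was not called. Klra16, Klrc1, Klrg2 and Klri2 differed by 0.30, 0.32, 0.08 and 0.38. Klra10, Klrb1f, Klrc3, Klre1, Klrh1 and Klri1 were not measured in either genotype.

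The receptor genes lie in the NK gene complex, a cluster of lectin-like genes on chromosome 6 in mice. As the RefSeq annotation orders them, 83 genes run from Klrb1b to Klra2, and 57 of them are not Klr genes. Of these 57 neighbours 14 had a probe and 9 were measured. Of the 9, 2 were higher, 2 lower and 5 neither, beside 8.75% higher and 5.58% lower among all measured genes. The neighbours had a median difference of 0.05, against 0.10 over all measured genes. Gabarapl1, an autophagy gene, had signals of 41123 and 52050.0 in WT and of 89305 and 78554 in Bach2KO, 2.55-fold higher. Cd69, an early activation antigen, had signals of 619 and 804 in WT and of 229 and 225 in Bach2KO. It was 2.20-fold lower, a call lost with normexp correction at -0.99. On the spike-in scale none of the 9 was higher and 3 were lower, beside 4.15% and 21.3% of all measured genes. Along the order Klra17, Klra6 and Klra8 were higher, Klra5 and Klra9 among and beside them were neither, and Klra2 at the far end was lower. Klra5 stands here by its probe of highest mean signal. Its other measured probe was called higher, a call lost with normexp correction.

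**Figure D4:**
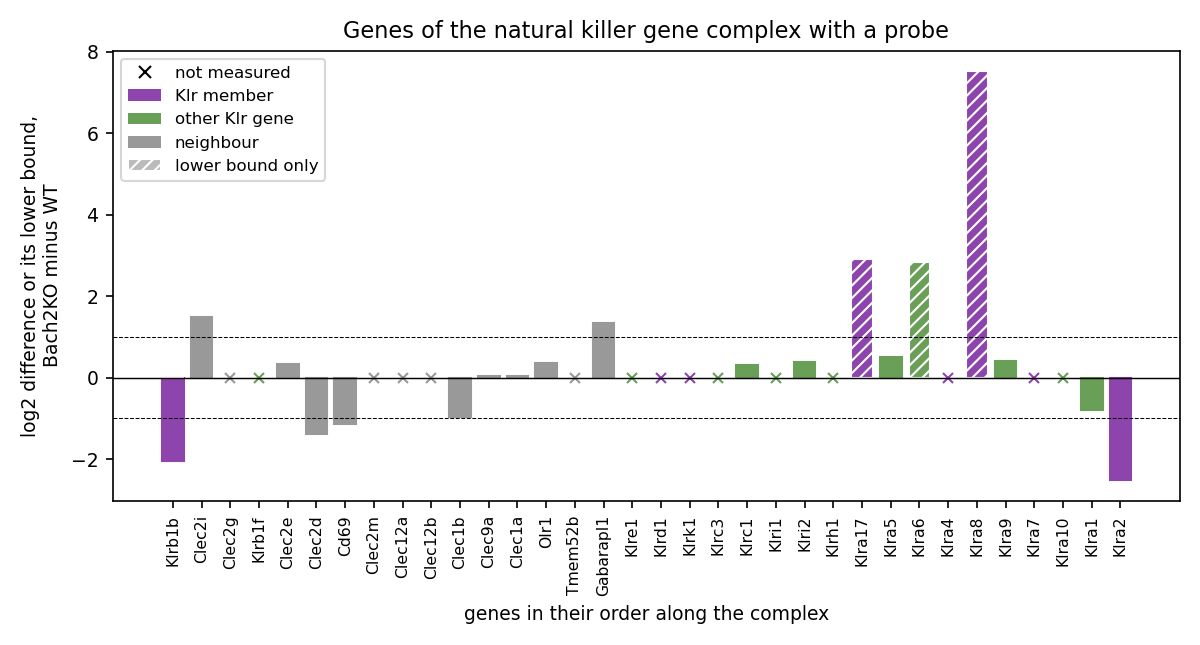
Difference between genotypes (Bach2KO minus WT, log2) of the measured genes of the NK gene complex, placed by their order from Klrb1b to Klra2 in the RefSeq gene table, with hatched bars for lower bounds. Klrb1b and Klra2 are lower, and as the outermost receptor genes they set the ends of the stretch drawn. Between them Klra17, Klra6, Klra8, Clec2i and Gabarapl1 are higher, Clec2d and Cd69 are lower, and the other measured genes are neither. Each gene is drawn by its measured probe of highest mean signal, which for Klra5 is the probe called neither.

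Ligands of these receptors had their own differences. Clec2d encodes Clr-b, the ligand of NKR-P1B, and was lower along with Klrb1b, with signals of 1506 and 1838 in WT and of 442 and 467 in Bach2KO (2.60-fold lower, and lower on the spike-in scale too, at -2.13). Clec2i encodes another Clec2 protein and was 2.81-fold higher, with signals of 92.1 and 96.6 against 190.1 and 186, a call lost on the spike-in scale at 0.73 and with normexp correction. MHC class I genes, whose products many Ly49 receptors bind, were well above background in both genotypes. H2-K1 had signals of 61561 and 68980.0 in WT and of 112900.0 and 111900.0 in Bach2KO, 2.43-fold higher. B2m, the shared light chain, was 2.24-fold higher, and H2-T23, which encodes the Qa-1 ligand of CD94 receptors, 2.29-fold higher. H2-D1 differed by 0.97 and was not called. On the spike-in scale these 4 genes were at 0.52, 0.41, 0.43 and 0.21, none called.

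Of 17 ligand genes 10 had a probe and 8 were measured, of which 4 were higher and 1 was lower, with a median of 1.07. On the spike-in scale 0 ligand genes were higher and 1 was lower. Of all measured genes 8.75% were higher and 5.58% lower, or 4.15% and 21.3% on the spike-in scale. Raet1e and Ulbp1, which encode ligands of NKG2D, differed by 0.40 and 0.86 and were not called. Of 11 adaptor and signalling genes 10 were measured, 1 was higher and 9 were neither (median 0.25). Tyrobp, the adaptor of activating Ly49 receptors, had signals of 152890.0 and 194640.0 in WT and of 155920.0 and 130940.0 in Bach2KO, a difference of 0.22 that became -0.53 on the spike-in scale. Hcst, the adaptor of NKG2D, had signals of 11687 and 13631 in WT and of 17651 and 16844 in Bach2KO, a difference of 0.95 (0.19 on the spike-in scale) that fell short of 2-fold. Ptpn6, the phosphatase recruited by inhibitory forms, differed by -0.51, and by -1.27 with a call of lower on the spike-in scale. Zap70, a kinase of T and NK cells, was the higher one, with signals of 56.3 and 64.7 against 141 and 106, 2.86-fold, and its call was lost on the spike-in scale and with normexp correction.

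Markers of the other cells that a sort could hold were followed beside the receptors. Of 13 NK cell markers 9 were measured, and all 9 were neither higher nor lower (median 0.37). Of all measured genes 8.75% were higher and 5.58% lower. The NK cell markers had summed levels relative to the 75th percentile of 8.67 to 8.88 in WT and of 7.99 to 8.09 in Bach2KO. Without Nkg7, the gene of highest WT level, the others summed to 3.63 to 3.89 in WT and to 2.74 to 2.88 in Bach2KO. Cd244a made up most of that remainder, with signals of 3932 and 4477 in WT and of 1979 and 1887 in Bach2KO. It was the only measured NK cell marker with a negative difference on the main scale, -0.62, so the lower sums do not describe the other markers. Ncr1, which encodes the NK receptor NKp46, was not well above background on any array. Eomes, a transcription factor of NK cells, had signals of 38.5 and 24.8 in WT and of 32.9 and 37.5 in Bach2KO. Gzma and Prf1, which encode granzyme A and perforin, differed by 0.37 and 0.35. Nkg7, a gene of cytotoxic granules, differed by 0.06. Gzmb, which encodes granzyme B, was not well above background in WT and had signals of 21.2 and 18.4 in Bach2KO, too low for a bound of 2-fold. In other settings 1 NK cell marker was called lower on the spike-in scale and 1 was called higher where a gene's probes were averaged.

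Of 19 T cell markers 17 were measured. Of these 7 were higher and 1 was lower, beside 8.75% and 5.58% of all measured genes, and the median was 0.97. Their summed level ranged from 66.7 to 67.0 on the WT arrays and from 28.0 to 28.3 on the Bach2KO arrays, and Cd2, with signals of 68645 and 82638 in WT and of 14929 and 13830 in Bach2KO, was the lower one. Cd2 made up most of that sum: without it, as computed after the values were seen, the other markers summed to 8.34 to 9.29 in WT and to 12.5 on both Bach2KO arrays, the opposite direction. On the spike-in scale 3 were higher and 1 lower, beside 4.15% and 21.3% of all measured genes. In WT neither Cd3d nor Cd3g passed the background limit, and Bach2KO was at least 6.31-fold and at least 2.74-fold higher, calls lost with normexp correction, while Cd3e differed by 0.21. Among 8 plasmacytoid dendritic cell markers, named here because Klra17 is known from those cells, 7 were measured, 2 were higher and 5 neither, and 1 was higher and 1 lower on the spike-in scale. Their summed level ranged from 66.9 to 75.3 in WT and from 64.7 to 65.3 in Bach2KO, and without Siglech from 16.4 to 16.6 and from 26.7 to 27.4. Siglech had signals of 69947 and 71527 in WT and of 36010.0 and 33962 in Bach2KO, a difference of -0.52, and Cox6a2 was 34.6-fold higher. The part of these cells in the Klra8 and Klra17 signals was not tested.

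Of 12 measured markers of monocytes and interstitial macrophages 8 were higher and 1 was lower, beside 8.75% and 5.58% of all measured genes, the median being 1.81, and a summed level of 15.3 to 15.9 in WT and of 34.3 to 34.9 in Bach2KO. On the spike-in scale 6 were higher and 2 lower, beside 4.15% and 21.3% of all measured genes. C1qa was 17.4-fold higher, F13a1 at least 25.5-fold higher, and Ccr2 differed by -2.08. Of 14 alveolar macrophage markers, all measured, 1 was higher and 7 were lower, the median being -0.84, and a summed level of 1357 to 1527 in WT and of 960 to 968 in Bach2KO. On the spike-in scale 0 were higher and 7 lower. Siglecf, a defining surface marker of these cells, had signals of 52918 and 57395 in WT and of 3408 and 2981 in Bach2KO, 12.3-fold lower. Marco was 3.52-fold lower, and Pparg, their lineage regulator, differed by -0.07. These markers moved in the same comparison as Klra2 and Klrb1b, and their part in the lower values of both genes was not tested.

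The remaining lists of immune cells covered dendritic cells, B cells and neutrophils. Of all measured genes 8.75% were higher and 5.58% lower, or 4.15% and 21.3% on the spike-in scale. Of 8 conventional dendritic cell markers 4 were measured and all 4 were neither, with a summed level of 2.39 in WT and of 1.99 to 2.08 in Bach2KO (without Batf3, 0.37 to 0.38 and 0.44 to 0.45), and 1 was lower on the spike-in scale. Of 6 B cell markers 5 were measured and 1 was higher (0 on the spike-in scale, with normexp correction or with all 4 arrays above background), with a summed level of 2.62 to 2.64 in WT and of 3.46 to 3.60 in Bach2KO. Of 8 neutrophil markers 6 were measured, 3 were higher (2 on the spike-in scale) and 0 were lower. Their summed level was 45.0 to 46.3 in WT and 59.5 to 59.8 in Bach2KO. Without Csf3r, most of the WT sum, that level was 3.89 to 4.08 in WT and 24.9 to 27.05 in Bach2KO. S100a8 was 13.9-fold higher and made up most of that Bach2KO level. S100a9 was at least 33.2-fold higher (2.91 on the log2 scale with normexp correction). Elane was 2.19-fold higher, a call lost on the spike-in scale. Camp, Mpo and Csf3r differed by 0.52, -0.08 and -0.31 and were not called, and Ngp was not measured.

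**Figure D5:**
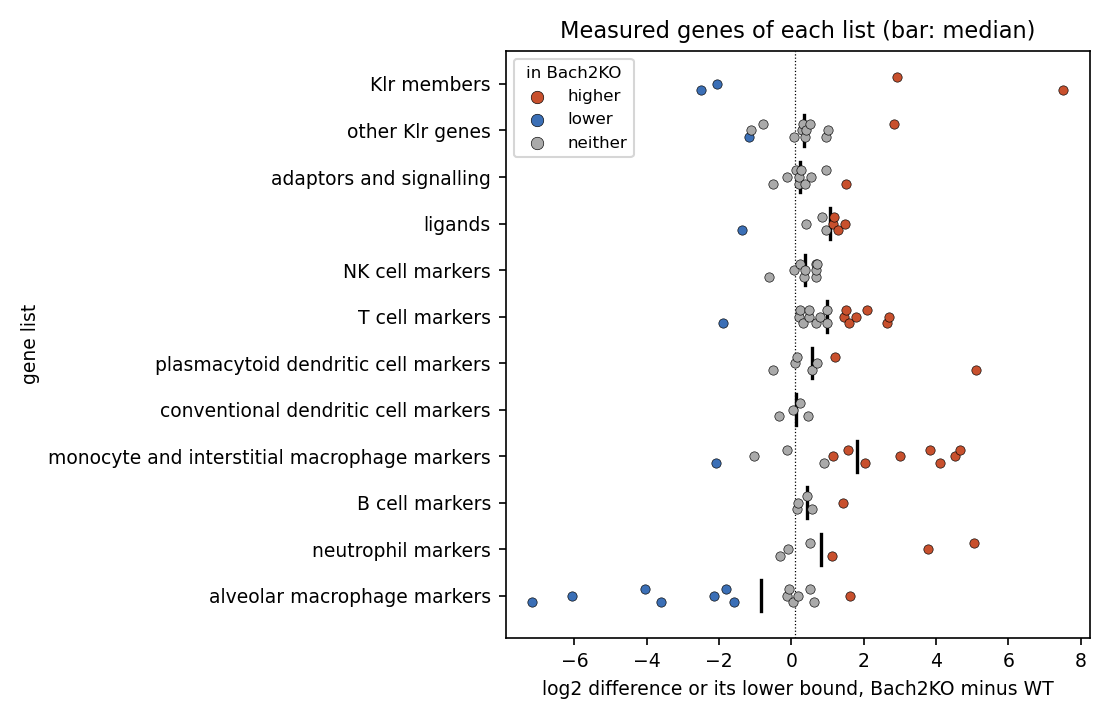
Difference between genotypes (Bach2KO minus WT, log2) of each measured gene in each list, 1 point per gene, with bound-only genes at their lower bound, a bar at the median of each list except the receptor genes and a dotted line at the median of all measured genes, 0.10. NK cell markers are drawn at less than 2-fold in either direction, Gzmb only by its lower bound, which does not limit its difference from above. Klra8 and Klra17 lie at more than 2-fold higher and Klra2 and Klrb1b at more than 2-fold lower.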

How the data were processed

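RNA of sorted alveolar macrophages was hybridised to 4 one-colour Agilent arrays on 1 slide, with the arrays of each genotype side by side, so that slide position and genotype cannot be told apart. The scanner files hold spot intensity, per the file headers after background subtraction and spatial detrending in Agilent Feature Extraction 10.7.3.1 (version 9.1 in the submitters' processing notes), without normalization between arrays. The table of log2 values deposited by the authors equals log2 processed signal minus each array's 75th percentile over probes, with higher values for brighter probes (SD of the difference 3.2e-07 to 3.5e-07, column medians -3.58, -3.67, -3.53 and -3.45). It was used as an alternative.

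Control spots and the 109, 120, 133 and 136 outlier spots were left out of 43020 spots per array (0 saturated), replicate spots were averaged as log2 values, and the 75th percentile was subtracted. A probe counted as above background where at least 0.5 of its spots did. With 2 arrays of 1 RNA sample per genotype, calls follow a rule of size, and the number of arrays limits the precision. The procedure was tested on simulated data in which every probe was above background on every array. The rule for lower bounds, on which the Klra8 and Klra17 calls rest, was not covered by that test. Symbols came through unversioned accessions from a RefSeq table (GRCm38.p6): 26049 probes had 1 symbol, 0 several and 13380 none. Genes outside the 9 receptors were represented by their probe of highest mean signal. No probe coordinates are given, since the array was designed on mm9.

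The receptor genes, the gene lists and the naming rule (all probes of the receptors, every other measured Klr gene, called or role-defining genes of the lists) were chosen with earlier results of these data known. Alternatives were median centring, quantile normalization, spike-in scaling, normexp correction (limma 3.58.1 in R 4.3.3, median spot signals) with either scaling, the deposited table, other filters and thresholds, and leaving out each array.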

Additional observations from a re-analysis of the deposited data

How the results depend on the processing

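Of the 8 receptor probes, 7 kept their call in every alternative that gave them a value, and the Klrb1b probe A_55_P2106681 lost its call with both normexp settings, at -0.76 and -0.99. With all 4 arrays required to be above background, 0 receptor probes were higher, because Klra8 and Klra17 were below it in WT. Leaving out each array in turn gave 4 to 5 higher receptor probes, the fifth being Klra7 A_51_P500090 without Bach2KO replicate 1, and 4 lower ones. Over all probes, against 2005 higher and 1653 lower, spike-in scaling gave 864 and 5932, normexp with the 75th percentile 1301 and 960, normexp with quantiles 1191 and 1076, a 1.5-fold threshold 3866 and 3385, and a 3-fold threshold 1006 and 711. Over genes, spike-in scaling gave 627 higher and 3214 lower, against 1323 and 843. Leaving out each array gave 2126 to 2532 higher and 1780 to 1961 lower probes. The median of all measured probes moved from 0.10 by -0.14 with median centring, by -0.11 with quantile normalization, by -0.10 with normexp and quantiles and by -0.76 with spike-in scaling. A 75th percentile over spots, chosen after seeing the data, gave 1910.0 and 1750.0. Apart from spike-in scaling, whose shift is common to all probes, and the thresholds and filter, the cause was not tested. No paired analysis was possible because both arrays of a genotype carry 1 divided RNA sample and their numbers pair nothing. Signal over background limits the Klra8 and Klra17 folds to lower bounds.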
